A study of Mus musculus with 8 samples.

Results

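The 10 genes described here are p53 damage-response targets: Ccng1, Zmat3, Trp53inp1, Bbc3, Bax, Perp, Eda2r, Aen, Phlda3 and Rrm2b. They were chosen by name, as genes that p53 is known to activate after DNA damage, with earlier results of these data known. Each was matched by its symbol in the deposited expression table. All 10 were found among the 14145 genes of that table. The study grew primary tubular epithelial cells (TECs, the cells that line the kidney tubule) from mice and sequenced their RNA without any treatment. There were 4 libraries from control mice (Aldh2Ctrl, called WT in the sample titles) and 4 from mice that lack Aldh2 in tubular epithelium (Aldh2TEC-KO). All 8 cultures were grown in DMEM/F12 with 10% fetal bovine serum, at 37 degrees and 5% CO2. The genetic background, the age, the Cre driver and the floxed alleles are not given in the labels used here, and neither is the number of animals behind each group. The p-values below therefore measure the spread between libraries, which may in part be technical.

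The transcription factor p53 is held low in unstressed cells by Mdm2, a ubiquitin ligase that is itself a p53 target. DNA damage releases p53 from this control, and it then binds paired response elements near its target genes and raises their transcription. The products stop the cell cycle, repair DNA, feed back on p53, or trigger death through mitochondria and membrane receptors. In kidney tubules this programme is known from acute injury by toxins and by loss of blood flow. ALDH2 is the mitochondrial enzyme that oxidises acetaldehyde and other reactive aldehydes, a class of compounds that can damage DNA.

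The best match to the p53 response element in each gene's promoter is printed for the closest members. RefSeq promoter windows (build GRCm38.p6), running from 250 bases before to 50 bases after a start site, were on hand for 6 of the 10 genes, in 9 windows. Trp53inp1, Perp, Zmat3 and Rrm2b had none. Each window was searched for the canonical p53 response element, 20 bases made of 2 adjoining half-sites of 10 bases, which reads the same on both strands. The capitals mark the 20-base match and the small letters its flanks, on the strand of the gene.
Ccng1: aggccAGACCTGCCCGGGCAAGCCTtggca
Aen: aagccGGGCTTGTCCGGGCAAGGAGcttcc
Bax: tgacaAGCATATCCCAGGCAAGCTTtgaac
Bbc3: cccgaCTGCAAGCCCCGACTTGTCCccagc
The Ccng1 stretch lies on the minus strand at chr11:40755457-40755486, its match starts at -195 from the start site, and it has 1 mismatch to the consensus. A match that close was present in 0.0883% of all 32851 windows. Aen (plus strand, chr7:78895932-78895961), Bax (minus strand, chr7:45467085-45467114) and Bbc3 (plus strand, chr7:16309481-16309510) each have 3 mismatches, a closeness reached by 6.29% of windows. Bbc3 was searched in more than 1 window, and the best matches in its other windows have 5 and 6 mismatches. The best match of Phlda3 has 5 mismatches and that of Eda2r has 6, which 76.6% and 98.5% of windows reach. An exact half-site was present in the windows of Ccng1, Bax and Aen, against 8.36% of all windows. These are matches of letters within short windows. They do not show whether p53 binds there.

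Depth was even across the study. The library depth recovered from the deposited FPKM values (fragments scaled to transcript length and library depth) ranged from 17050000 to 17750000 reads in controls and from 17890000 to 18750000 in knockouts. Aldh2 itself read 26.4 ± 3.24 FPKM (SD, n = 4) in controls and 1.24 ± 0.31 in knockouts, a log2 difference of -3.61 (limma, adjusted p = 3.43e-05), and no knockout library reached a control. Xist read 14.5 and 38.3 FPKM in knockout 1 and 2 and at most 0.01 elsewhere, while the summed level of 4 Y-linked genes was 19.96 to 34.1 FPKM in controls, 0.07 and 0 in knockout 1 and 2, and 5.79 and 12.2 in knockout 3 and 4. The controls and knockout 3 and 4 thus carried male transcripts and knockout 1 and 2 female ones, so sex is uneven between the groups. Of 12 tubular markers, 10 were measured, and their summed FPKM spanned 1399 to 3018 in controls and 849.5 to 6191 in knockouts. Cubn and Slc34a1, markers of the proximal tubule, were not among the genes analysed here.

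No member passed the test between genotypes. Each log2 difference is knockout minus control on the log2(FPKM + 1) scale, tested with limma and Benjamini-Hochberg adjustment over all 14145 genes at an adjusted p of 0.05. At that threshold 0 of the 10 members were called, against 0.0778% of all genes (11 genes, 0.0212% higher and 0.0566% lower in knockouts). limma-voom on recovered reads also called 0 of them. At an unadjusted p under 0.05 there was 1 member, Phlda3, which was higher, where 19.2% of all genes passed and 7.58% were higher. Between them, 6 members were higher and 4 lower in knockouts, and the median member difference was 0.13 beside -0.06 over all genes, of which 44.5% were higher. The groups overlapped for every member, whereas they did not overlap for 11.6% of all genes.

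**Figure D1:**
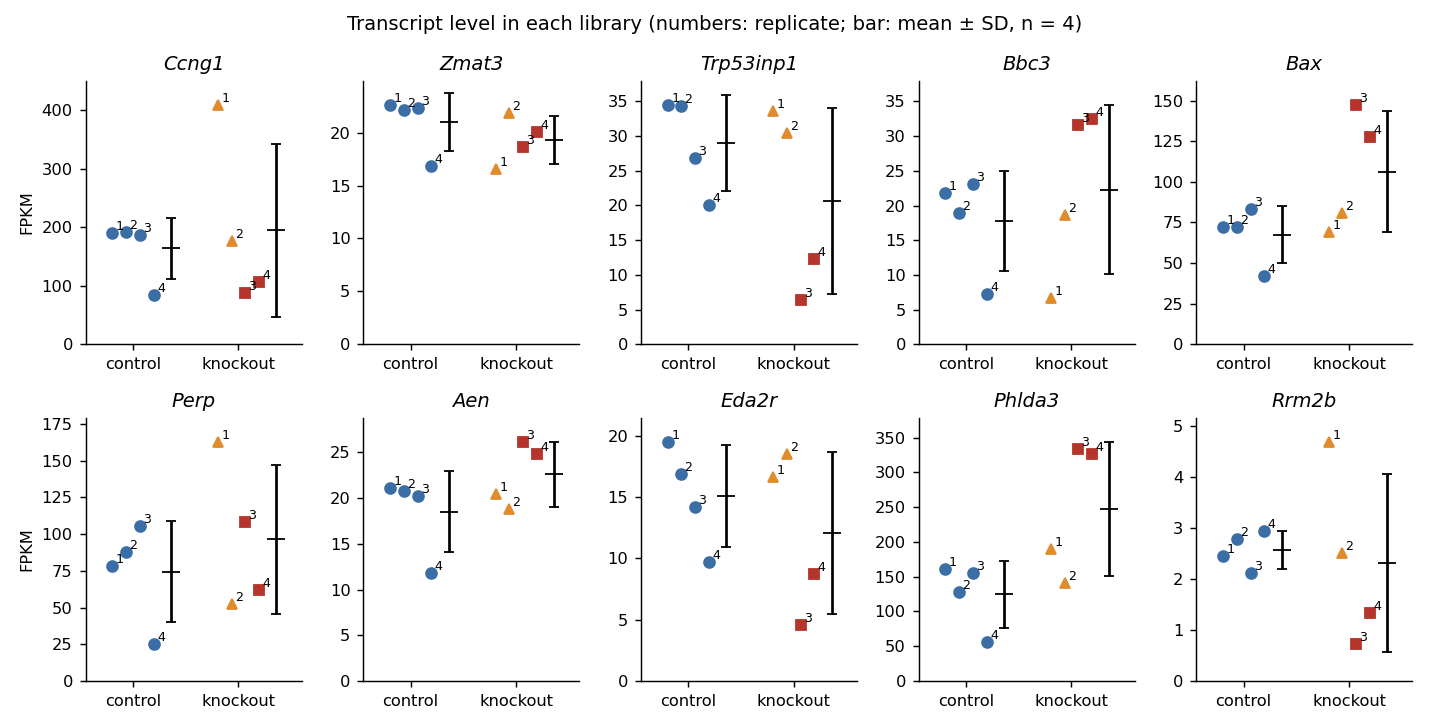
FPKM of the 10 p53 target genes in each of the 8 libraries, with circles for controls, triangles for knockout 1 and 2, squares for knockout 3 and 4, and bars for the mean ± SD (n = 4). The groups overlap for every gene, and control 4 is the lowest control for 9 of 10. On the log2 scale the ratio of knockout SD to control SD is largest for Rrm2b (4.93), Trp53inp1 (2.99) and Eda2r (2.08).

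Among the genes that feed back on p53, Ccng1 encodes cyclin G1, which brings the phosphatase PP2A to Mdm2. It lies on chromosome 11 (40748552 to 40755311, minus strand). Its level was 190.8, 191.3, 187.3 and 84.7 FPKM across control 1 to 4, and 408.6, 176.9, 87.8 and 106.1 FPKM across knockout 1 to 4. Control 4 and knockout 3 and 4 were low, knockout 1 stood far above all others, and the groups overlapped. The group levels were 163.5 ± 52.6 and 194.9 ± 147.6 FPKM (SD, n = 4), a log2 difference of 0.06 (SE 0.48, 95% interval -1.01 to 1.12, adjusted p = 0.956 by limma).

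Zmat3, an RNA-binding zinc-finger protein that acts on splicing and transcript stability, was the steadiest member. The gene is on chromosome 3 (32334792 to 32366014, minus strand). The controls read 22.6, 22.1, 22.3 and 16.9 FPKM and the knockouts 16.6, 21.9, 18.6 and 20.1. Its log2 difference was -0.11 (SE 0.16, 95% interval -0.48 to 0.26, adjusted p = 0.707 by limma). The low control was again control 4, and the knockout values lay among the controls or just under them.

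Trp53inp1 encodes a nuclear protein that works with the kinase HIPK2 to promote p53 phosphorylation, and also takes part in autophagy. The gene lies on chromosome 4 (11156431 to 11174379, plus strand). It measured 34.5, 34.4, 26.9 and 20.1 FPKM across control 1 to 4 and 33.6, 30.5, 6.35 and 12.2 across knockout 1 to 4. Knockout 1 and 2 sat at the level of the higher controls, and knockout 3 and 4 lay below every other library. The difference between genotypes was -0.70 on the log2 scale (SE 0.46, 95% interval -1.74 to 0.34), with a limma adjusted p of 0.406.

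Of the mitochondrial death genes, Bax encodes the protein that opens pores in the outer mitochondrial membrane. It lies on chromosome 7 (45461697 to 45466898, minus strand). The FPKM values were 72.2, 72.2, 83.4 and 42.3 across control 1 to 4 and 69.0, 81.1, 147.4 and 127.8 across knockout 1 to 4. Knockout 1 and 2 fell inside the control range, and knockout 3 and 4 were above all other libraries. Group means were 67.5 ± 17.6 and 106.3 ± 37.3 FPKM (SD, n = 4), and the log2 difference was 0.62 (SE 0.30, 95% interval -0.05 to 1.29, adjusted p = 0.286 by limma). The exons of Bax share 192 of 1576 bases with Gm45808, a protein-coding gene on the same strand, so reads in that stretch could be counted for either.

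Bbc3 encodes Puma, a BH3-only protein that frees or activates Bax. It also lies on chromosome 7 (16308393 to 16318205, plus strand). Its controls measured 21.8, 18.9, 23.1 and 7.25 FPKM, and its knockouts 6.62, 18.7, 31.6 and 32.5. The lowest knockout and the lowest control were nearly equal, while knockout 3 and 4 exceeded every control. The log2 difference of 0.21 had an SE of 0.50 and a 95% interval from -0.91 to 1.34 (limma, adjusted p = 0.821).

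Aen encodes an exonuclease that degrades DNA in dying cells. It lies on chromosome 7 (78895854 to 78911209, plus strand). In control 1 to 4 it read 21.1, 20.8, 20.2 and 11.9 FPKM, and across knockout 1 to 4 20.5, 18.8, 26.2 and 24.9 FPKM. With control 4 aside, the controls were within about 1 FPKM of each other, and knockout 3 and 4 lay above all of them. The difference was 0.30 on the log2 scale (SE 0.22, 95% interval -0.19 to 0.78, limma adjusted p = 0.45).

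At the cell surface, Perp is a tetraspan membrane protein required for desmosomes, the junctions that hold epithelial cells together, and it promotes cell death. Its place is chromosome 10 (18845020 to 18857073, plus strand). Control 1 to 4 read 78.3, 88.1, 105.7 and 25.4 FPKM, and knockout 1 to 4 read 163.0, 52.5, 108.1 and 61.9. Knockout 1 was the highest library and control 4 the lowest, and no order by genotype was visible. The log2 difference was 0.40 (SE 0.48, 95% interval -0.69 to 1.48, adjusted p = 0.646 by limma).

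Eda2r is a receptor of the TNF receptor family that binds a splice form of ectodysplasin. It lies on the X chromosome (97333840 to 97377216, minus strand). Its FPKM values were 19.5, 16.9, 14.2 and 9.69 across control 1 to 4 and 16.6, 18.5, 4.53 and 8.72 across knockout 1 to 4. Both female knockout libraries lay within the range of the controls, which are male, and both male knockouts were below every control. Among the knockouts, sex and library cannot be told apart for this X-linked gene. A log2 difference of -0.42 was measured (SE 0.39, 95% interval -1.30 to 0.46, limma adjusted p = 0.551).

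Phlda3 showed the largest difference of the 10. Its product, a small pleckstrin-homology protein, competes with Akt for membrane lipids and so restrains Akt signalling. The gene sits on chromosome 1 (135766119 to 135769136, plus strand). The level was 160.6, 127.5, 155.2 and 55.9 FPKM across control 1 to 4, and 189.8, 141.5, 333.1 and 326.0 FPKM across knockout 1 to 4. Knockout 3 and 4 stood at about the same high level, knockout 1 was a little above the controls, and knockout 2 was inside their range. The mean of 247.6 ± 96.7 FPKM in knockouts was 1.98 times the 124.8 ± 48.2 FPKM in controls (SD, n = 4). On the log2 scale the difference was 1.00 (SE 0.40, 95% interval 0.11 to 1.89), with an unadjusted p of 0.0314 and an adjusted p of 0.23 by limma. In the authors' deposited table Phlda3 had a log2 fold change of 1.13, a p of 0.0304 and an adjusted p of 0.749, and was the only member with a mark, an up mark that 2.34% of all genes carry (5.71% carry a mark of either direction).

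Rrm2b encodes the p53-induced small subunit of ribonucleotide reductase, which supplies deoxynucleotides for repair in cells that are not dividing. It lies on chromosome 15 (37923952 to 37961318, minus strand), and was the least abundant member. It read 2.44, 2.79, 2.11 and 2.94 FPKM across control 1 to 4 and 4.69, 2.5, 0.72 and 1.33 across knockout 1 to 4. Knockout 1 was above and knockout 3 and 4 were below all controls, and Rrm2b was the one member for which control 4 was not the lowest control. The log2 difference was -0.25 (SE 0.33, 95% interval -1.0 to 0.50, adjusted p = 0.68 by limma). Its exons share 734 of 9134 bases with the antisense gene Gm49085, and the sources used here do not say whether counting used strand. Between 123 reads (Rrm2b in knockout 3) and 26421 reads (Ccng1 in knockout 1) lay behind each member's value, so counting error alone was 9.02% at most and 0.615% at least.

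**Figure D2:**
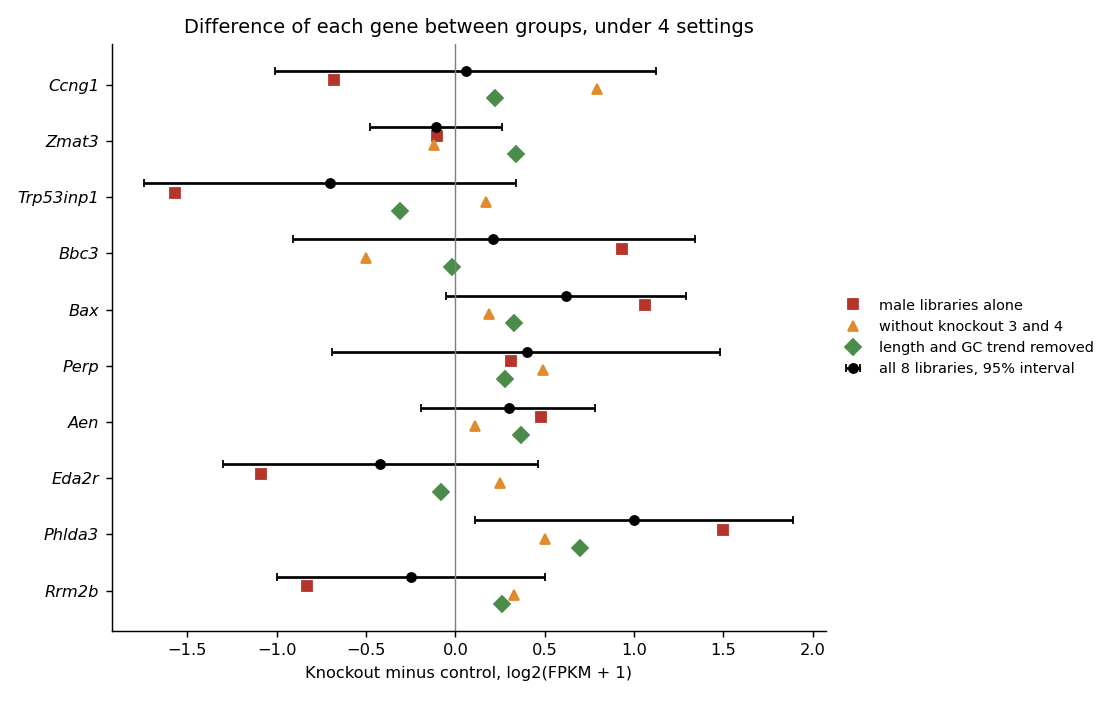
Log2 difference of the 10 genes, knockout minus control on the log2(FPKM + 1) scale, over all 8 libraries with its 95% interval, with the male libraries alone, without knockout 3 and 4, and with the length and GC trend taken out. The interval of Phlda3, 0.11 to 1.89, is the one that lies wholly above 0, and for Ccng1, Trp53inp1, Bbc3, Eda2r and Rrm2b the value in the male libraries alone and the value without knockout 3 and 4 have opposite signs.

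Within the knockouts the members split by library. Their SD on the log2 scale was larger in knockouts than in controls for 6 of 10, a smaller share than the 83.1% of all genes. Knockout 3 and 4 were both above the other 6 libraries for 4 members (Phlda3, Bax, Bbc3 and Aen) and both below them for 3 (Trp53inp1, Eda2r and Rrm2b). Of all genes, 18.1% lay above and 27.2% below in that way, 45.3% together. Against the control mean, the log2 difference in knockout 3 and 4 was 1.5 for Phlda3, 1.06 for Bax, 0.93 for Bbc3 and 0.48 for Aen. It was -1.57 for Trp53inp1, -1.09 for Eda2r, -0.83 for Rrm2b and -0.68 for Ccng1. In knockout 1 and 2 the same genes differed from controls by 0.50, 0.19, -0.50 and 0.11 for the first 4, and by 0.17, 0.25, 0.33 and 0.79 for the others. Zmat3 differed by -0.10 in knockout 3 and 4 and by -0.12 in knockout 1 and 2, and Perp by 0.31 and 0.49.

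**Figure D3:**
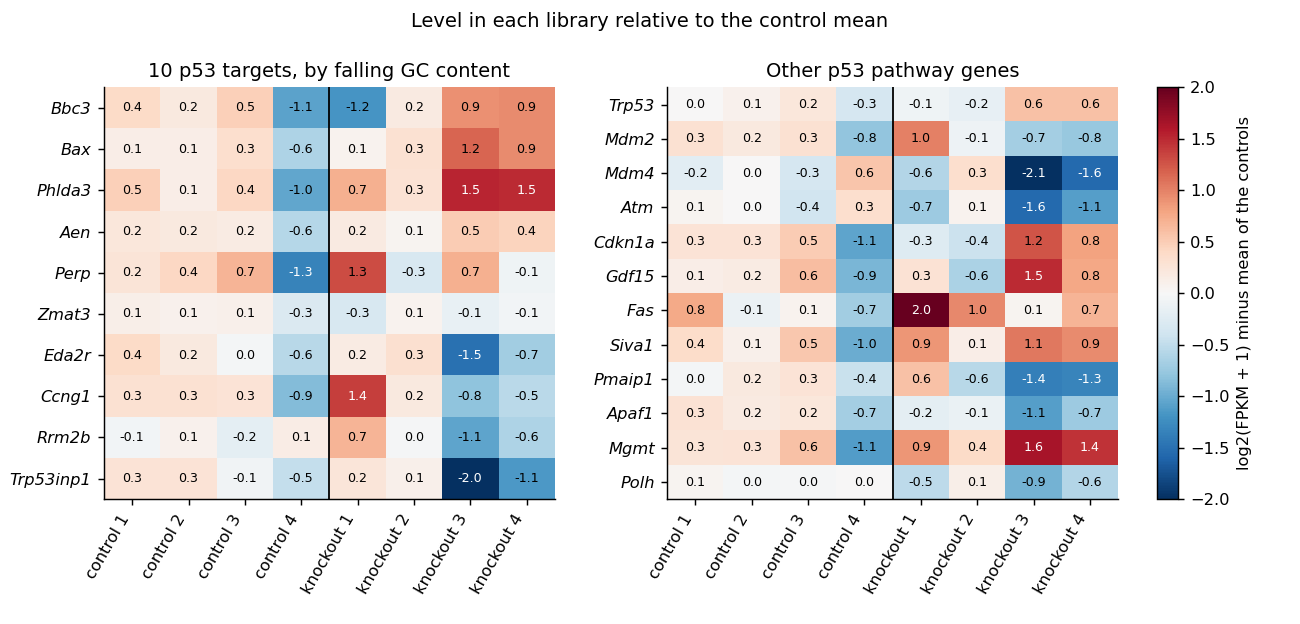
Log2(FPKM + 1) in each library minus the control mean of the gene, on a colour scale centred on 0, for the 10 p53 targets in order of falling GC content (left) and for other p53 pathway genes (right). Control 4 is below the control mean for 9 targets, and knockout 3 and 4 are high for Phlda3, Bax and Bbc3 and low for Trp53inp1, Eda2r and Rrm2b.

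These values moved with the base composition and length of the transcripts. Over all genes, the median difference of knockout 3 and 4 from controls went from -0.68 in the quartile of lowest GC content (20.6% to 44.9%) through -0.30 and 0.10 to 0.41 in the quartile of highest (54.4% to 78.3%). The lowest quartile holds Ccng1, Trp53inp1, Eda2r and Rrm2b, and the highest holds Bbc3, Bax and Phlda3. By length, the median went from 0.15 in the shortest quartile (100 to 2193 bases), with Bbc3, Bax, Perp and Phlda3, to -0.52 in the longest (6354 to 41324 bases), with Zmat3, Trp53inp1 and Rrm2b. In knockout 1 and 2 the GC quartiles had medians of 0.09, 0.02, -0.02 and -0.09. The length quartiles, from shortest to longest, had medians of 0.14, 0.07, -0.02 and -0.12 in knockout 1 and 2. A curve fitted through all genes gave, at each member's GC and length, 0.72 of the 1.5 of Phlda3, 0.72 of the 1.06 of Bax, 0.67 of the 0.93 of Bbc3, -0.89 of the -1.57 of Trp53inp1, -0.78 of the -1.09 of Eda2r, -0.51 of the -0.68 of Ccng1 and 0.10 of the 0.31 of Perp. For the other members the curve was farther from zero than the value or had the other sign: -1.07 beside -0.83 for Rrm2b, -0.76 beside -0.10 for Zmat3 and -0.07 beside 0.48 for Aen. After this trend was removed from every library, the genotype difference was 0.70 for Phlda3, 0.33 for Bax, -0.02 for Bbc3 and 0.37 for Aen, with 0 members called. The part of GC content, length, sex and culture in the split between knockout libraries was not tested.

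**Figure D4:**
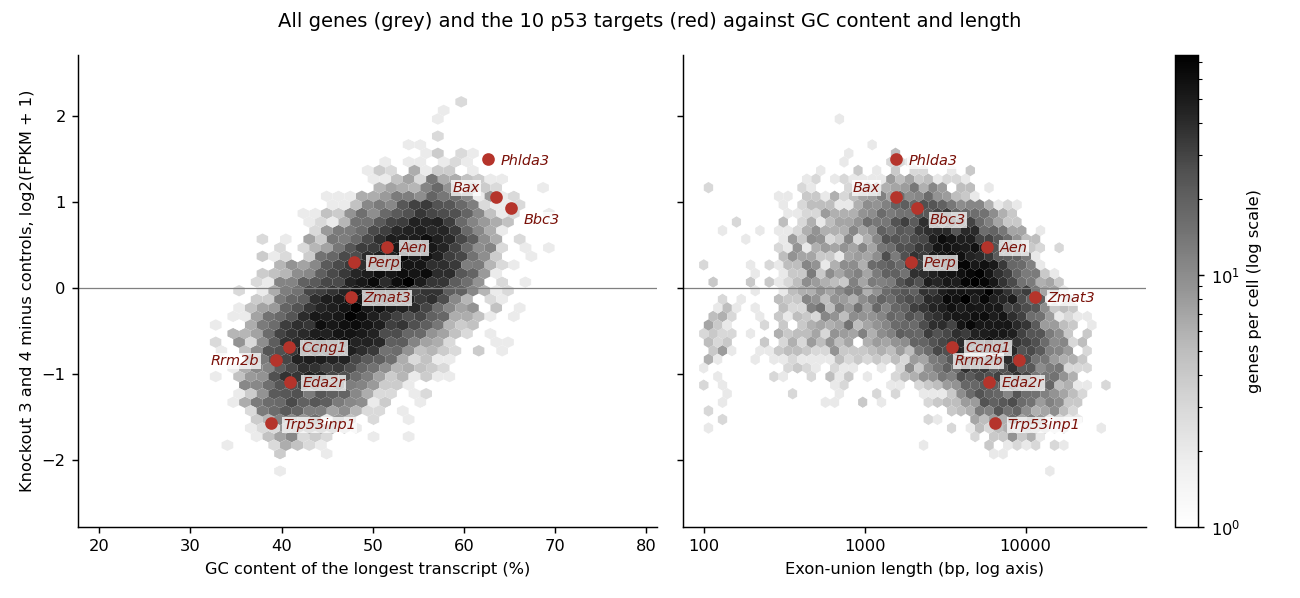
Difference of knockout 3 and 4 from controls, log2(FPKM + 1), against GC content (left) and exon length on a log axis (right), for 14128 genes in grey and the 10 p53 targets in red. Genes of high GC content lie higher, with Phlda3, Bax and Bbc3 at the upper right of the left panel and Trp53inp1, Rrm2b, Ccng1 and Eda2r at the lower left.

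With the male libraries alone (4 controls against knockout 3 and 4), 5 members passed an adjusted p of 0.05 by limma, where 44.4% of all genes did, 17.6% higher and 26.7% lower. Phlda3 (1.5, adjusted p = 0.0283) and Bax (1.06, adjusted p = 0.0195) rose, and Trp53inp1 (-1.57, adjusted p = 0.00763), Eda2r (-1.09, adjusted p = 0.0315) and Rrm2b (-0.83, adjusted p = 0.0116) fell. A fit over all 8 libraries with sex as a covariate called the same 5 members, and 34.2% of all genes, 12.6% higher and 21.6% lower. Since both female libraries are knockouts, these fits set the control libraries against knockout 3 and 4 only. All of these libraries carried male transcripts. Genotype, and anything else that sets knockout 3 and 4 apart from the controls, cannot be told apart here.

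Control 4 was the lowest control for 9 of 10 members, where that held for 34.6% of all genes. Its median member value was 0.59 below the control mean on the log2 scale (-0.59), while the other controls had medians of 0.26, 0.19 and 0.21. The median over all genes in control 4 was 0.01. Without control 4, the direction of the list turned: 3 members were higher and 7 lower in knockouts, with a median of -0.17. Knockout 1 was the highest of the 8 libraries for 3 members (Ccng1, Perp and Rrm2b), against 20.8% of all genes. Control 1 and knockout 3 were each highest for 3 members too, and knockout 1 was the lowest library for 2 (Zmat3 and Bbc3). Mdm2, named after its values were seen, read 52.1, 48.6, 52.3 and 23.96 FPKM across control 1 to 4 and 86.4, 39.3, 26.0 and 24.5 across knockout 1 to 4. Control 4 was thus also the lowest control for Mdm2, and knockout 1 the highest library.

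Upstream of the members, 11 of 13 listed p53 regulators were measured, of which 1 was higher and 10 lower in knockouts and 0 passed the test (median -0.27). The median was -0.04 in knockout 1 and 2 and -0.85 in knockout 3 and 4. In knockout 3 and 4 the median over all genes was -0.68 in the lowest GC quartile and -0.52 in the longest quartile. The single higher gene, Trp53 (named after its values were seen), read 48.3 ± 7.71 FPKM in controls and 58.1 ± 16.7 in knockouts, a log2 difference of 0.23 (limma, adjusted p = 0.584). Hipk2, the kinase that phosphorylates p53, read 16.7 ± 3.36 and 5.80 ± 5.69 FPKM, a difference of -1.71 (adjusted p = 0.154 by limma). Usp7, a deubiquitinase that acts on p53 and Mdm2, was 23.2 ± 1.37 and 14.7 ± 5.10 FPKM with no overlap (-0.68, adjusted p = 0.195 by limma). Atm, the kinase activated by DNA breaks, differed by -0.83 (adjusted p = 0.229 by limma). Atm (42.6% GC, 10338 bases) falls in both of those quartiles. Usp7 (45.1%, 7766 bases) and Hipk2 (53.5%, 8836 bases) fall in the longest only, and Trp53 (53.3%, 4045 bases) in neither. The part of GC content and length in the regulators' values was not tested.

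Of 31 other p53 targets, 29 were measured, 17 higher and 12 lower, and 0 passed the test (lowest adjusted p = 0.207 by limma, median 0.06). At an unadjusted p under 0.05 there was 1, where 19.2% of all genes passed. Knockout 3 and 4 lay outside the other libraries for 44.8% of them, 8 above and 5 below. That is near the share of all genes, 45.3%, with 18.1% above and 27.2% below. Cdkn1a, the p21 cell cycle inhibitor and a standard readout of p53 (named after its values were seen), read 329.6, 330.3, 390.9 and 130.9 FPKM across control 1 to 4 and 227.6, 203.0, 650.5 and 478.9 across knockout 1 to 4. Control 4 was lowest and knockout 3 and 4 were highest, as for Phlda3 and Bax, but knockout 1 and 2 were below the other controls. Its log2 difference was 0.34 (adjusted p = 0.684 by limma). Gdf15, a secreted stress cytokine, had the same order at its top, with 1481 and 907.6 FPKM in knockout 3 and 4 (0.48, adjusted p = 0.576 by limma). Fas, the death receptor, was instead highest in knockout 1 at 12.7 FPKM (0.93, adjusted p = 0.269 by limma). Mgmt, which removes alkyl groups from guanine, had the lowest p of the list, 10.5 ± 4.66 against 22.7 ± 8.74 FPKM (SD, n = 4, log2 difference 1.09, limma adjusted p = 0.207).

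**Figure D5:**
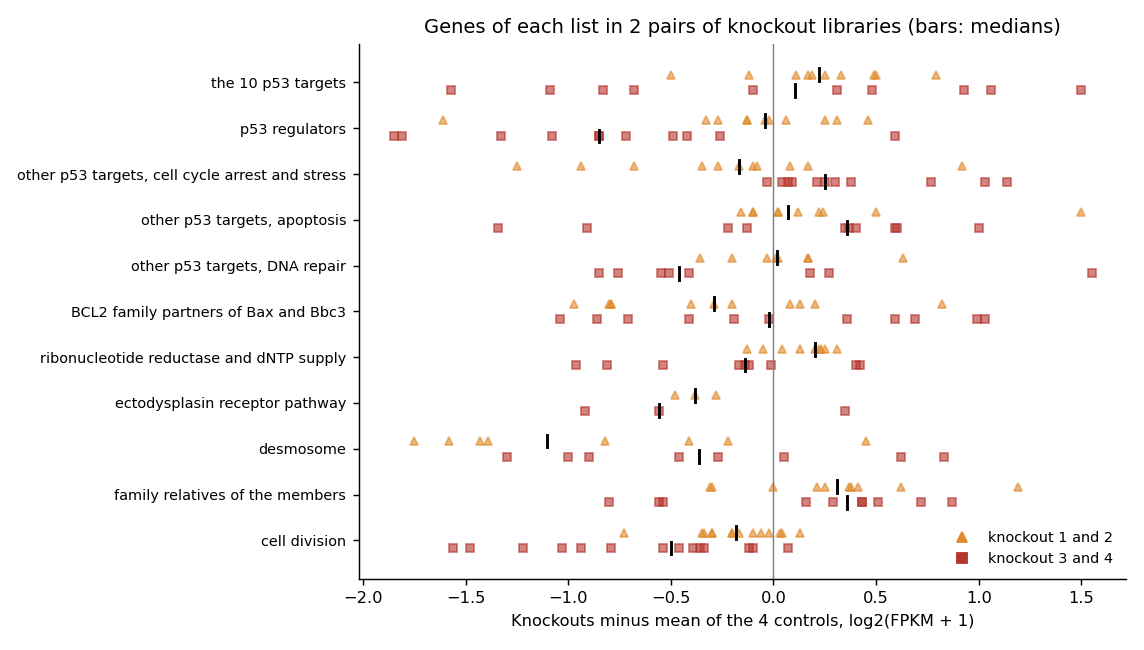
Difference from the mean of the 4 controls, log2(FPKM + 1), of each gene of the 10 p53 targets and of each related list, with triangles for the mean of knockout 1 and 2, squares for that of knockout 3 and 4, and bars for list medians. The p53 targets have medians of 0.22 and 0.10 and spread more widely in knockout 3 and 4 than in knockout 1 and 2. The p53 regulators have medians of -0.04 and -0.85. For knockout 3 and 4 the median of all genes in the lowest GC quartile is -0.68.

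The partners of Bax and Bbc3 in the BCL2 family numbered 11 measured of 12, with 4 higher, 7 lower and 0 called (median -0.17). Bcl2l11, which encodes the BH3-only protein Bim, read 8.14 ± 0.485 FPKM in controls and 4.38 ± 1.95 in knockouts (-0.83, adjusted p = 0.164 by limma). Bad, another BH3-only gene, read 10.6 ± 0.929 and 17.2 ± 5.67 FPKM (0.60, adjusted p = 0.223 by limma). Neither of these overlapped between genotypes, which held for 11.6% of all genes, and neither passed the test. For Bad the gap was narrow, with the highest control at 11.56 and the lowest knockout at 11.69 FPKM. Its knockout 3 and 4 read 22.08 and 22.15 FPKM. For deoxynucleotide supply, 9 of 9 genes were measured, 5 higher, 4 lower and 0 called (median 0.03). Rrm2, the small subunit used by dividing cells, was 10.5 ± 1.90 and 8.55 ± 4.30 FPKM (-0.37, adjusted p = 0.517 by limma), with its lowest values, 4.43 and 5.29, in knockout 3 and 4 as for Rrm2b.

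In the ectodysplasin pathway of Eda2r, 3 of 5 genes were measured, all lower, with 0 called. Traf6, the adaptor that carries its signal, read 7.33 ± 0.70 and 4.41 ± 1.32 FPKM with no overlap (-0.65, adjusted p = 0.175 by limma). The ligand gene Eda was near 1 FPKM in both groups (1.02 and 1.04). Around Perp, 8 of 8 desmosome genes were measured, 2 higher, 6 lower and 0 called (median -0.46). Dsg2, a desmosomal cadherin, read 12.1, 18.0, 18.4 and 11.3 FPKM across control 1 to 4 and 4.11, 3.22, 6.85 and 4.16 across knockout 1 to 4. Every knockout was below every control, and the log2 difference of -1.52 had an adjusted p of 0.0636 by limma. Dsp, the desmosomal plaque protein, likewise did not overlap, at 22.2 ± 4.15 and 8.75 ± 3.25 FPKM (-1.29, adjusted p = 0.0996 by limma). Perp itself differed in the other direction, by 0.40. Of the 10 tubular epithelial markers measured, 6 were higher and 4 lower in knockouts, with 0 called (median 0.1). The 2 of lowest p, Epcam and Cdh1 (E-cadherin), had lower means in knockouts, as Dsg2 and Dsp did. Epcam read 125.8, 159.3, 157.4 and 85.7 FPKM across the controls and 45.9, 27.4, 107.4 and 65.1 across the knockouts (-1.22, adjusted p = 0.177 by limma). Cdh1 read 125.4, 208.4, 209.8 and 107.8 FPKM and 41.3, 30.1, 155.8 and 87.8 FPKM (-1.26, adjusted p = 0.22 by limma). Knockout 1 and 2 were lowest for both, neither passed the test, and the part of epithelial content in the desmosome values was not tested.

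Cell division, which p53 targets restrain, was represented by 14 genes, all measured, all lower in knockouts and 0 called (median -0.37). Of all genes, 44.5% were higher in knockouts. The list median in single libraries was 0.02, -0.19, -0.11 and 0.31 for control 1 to 4, and -0.67, 0.33, -0.73 and -0.31 for knockout 1 to 4. Knockout 2 was thus as high as the highest control, and the other knockouts were below every control. Ccnb1 (-0.69, adjusted p = 0.22 by limma) and Top2a (-0.91, adjusted p = 0.248 by limma) were 2 of these genes, and both overlapped between genotypes. The part of p53 in the cell division values was not tested. Markers of other cells also differed between libraries. Of 12 macrophage markers, 11 were higher in knockouts (median 1.74), with summed levels of 91.0 to 1032 FPKM in controls and 225.0 to 1703 in knockouts. Control 1 alone gave the highest control sum, the other controls summing to 91.0 to 119.0 FPKM, and knockout 3 summed to 225.0 and knockout 4 to 1105. Of 10 fibroblast and pericyte markers 7 were measured, 6 lower (median -1.40), with sums of 36.5 to 455.7 and 25.7 to 38.9 FPKM. Control 1 stood apart here too, since the other controls summed to at most 69.8 FPKM. The 3 endothelial markers measured, of 10, summed to at most 7.16 FPKM. Their part in the members' values was not tested, and in bulk RNA fewer cells of a type cannot be told apart from less RNA per cell.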

How the data were processed

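RNA from 8 untreated primary TEC cultures was sequenced. Per the submitters' processing notes, FastQC, STAR 2.4.1d and DESeq2 were used with GRCm38; the sources used here do not name the counter, annotation or strandedness. The authors deposited 1 FPKM value for each gene and library, unrounded and not counts (identified from the values), and a log2 fold change, p-value, adjusted p-value and up or down mark for each gene. All 8 value columns were mapped to samples by name, with 0 columns left over. Groups came from the titles, because the genotype field runs through differently numbered ALDH names. Depth was recovered from FPKM and GENCODE M21 exon lengths (14134 genes); 95.0% to 95.5% of low values then came out whole within 0.05 read.

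log2(FPKM + 1) was fitted with limma 3.58.1 (R 4.3.3, variance trend, two-sided) over all 14145 genes, with Benjamini-Hochberg adjustment, threshold 0.05 and genotype as the only term. The fit was tested on simulated data. Summaries used Python 3.11.15 with pandas 2.3.3. GC content and length trends used a lowess span of 0.3. Alternatives were pseudocounts of 0.1 and 0.5, a low-value filter (1 FPKM or more in 4 or more libraries), no variance trend, median-ratio scaling, voom, a replicate block, a sex covariate, male libraries alone, trend removal and leaving libraries out. The members and lists were chosen with earlier results of these data known. Named genes were all members, Aldh2 and, in each list, genes past the threshold or up to 4 of lowest p; others are marked as chosen after their values were seen. Promoter windows are RefSeq's.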

Additional observations from a re-analysis of the deposited data

Results flagged for a closer look

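Each member's values in each genotype, 20 groups of 4 libraries, were checked for a single library far from the others, which chance gives in about 1 group in 20. In 3 groups the lowest library stood apart, each time control 4. Ccng1 read 84.7 FPKM there, a gap to the next control of 0.962 of the group's range. Zmat3 read 16.9 FPKM with a gap of 0.911, and Aen read 11.9 FPKM with a gap of 0.901. Members are genes of the same libraries, so these are not independent.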

How the results depend on the processing

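The count of 11 genes called became 3 with a pseudocount of 0.1, 1 with the replicate block, 7 with limma-voom on recovered reads, 2 after removal of the length and GC trend, 4838 with the sex covariate and 6275 in male libraries alone. It ranged from 1 to 1139 when 1 library was left out, with 1139 without knockout 2, 8 without control 4, 3 without knockout 3 and 1 without each of the others. Members called stayed 0 except for 5 with the sex covariate and 5 in male libraries alone. The deviations of same-numbered libraries correlated at 0.041, -0.202, 0.56 and -0.056, above 0.1 for number 3 alone, so the numbers were not taken to pair them, and with the replicate block 0 members were called.

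The member median of 0.13 ranged from -0.17 (without control 4) to 0.25 when 1 library was left out. Phlda3 (0.50 to 1.5), Bax (0.19 to 1.06) and Aen (0.11 to 0.48) were higher in knockouts under all alternatives run. Signs that turned included, with the sex covariate and in male libraries alone, Ccng1 at -0.68, Eda at 0.35 and Ddit4 at 0.3. With the trend removed they included Zmat3 at 0.34, Bbc3 at -0.02, Rrm2b at 0.26, Eda at 0.08, Mdm2 at 0.06 and Rrm1 at 0.29. Without knockout 3 and 4 they included Trp53inp1 at 0.17, Bbc3 at -0.50, Eda2r at 0.25, Rrm2b at 0.33, Gdf15 at -0.17, Pmaip1 at 0.02, Rrm2 at 0.22, Trp53 at -0.13, Mdm2 at 0.46, Cdkn1a at -0.35 and Rrm1 at 0.04. Bak1 at -0.2 and Bcl2l1 at -0.4 also turned there. Like Rrm1, they were named after their values were seen. Genes whose sign turned when 1 library was left out included Bbc3 (-0.14 to 0.68), Ccng1 (-0.39 to 0.34), Perp (-0.05 to 0.64), Rrm2b (-0.56 to 0.02), Cdkn1a (-0.01 to 0.60), Mdm2 (-0.52 to 0.08) and Eda (-0.34 to 0.09). The cause was not tested. With 4 libraries in each group, precision was set by the spread between libraries, not by read depth.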

Other observations

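Of 11 family relatives of the members 10 were measured, 6 higher and 4 lower in knockouts, with 0 called and a median log2 difference of 0.26. Pmp22, a tetraspan relative of Perp, read 7.60, 4.36, 4.71 and 2.94 FPKM across control 1 to 4 and 13.5, 10.54, 8.36 and 5.24 in knockout 1 to 4, a difference of 0.81 (limma, adjusted p = 0.219). Its highest values were in knockout 1 and 2, the libraries in which Phlda3 and Bax were closest to controls.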
